A study of Mus musculus with 17 samples.

Results

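The MHC class I presentation genes are 10 genes whose products make, fill and switch on the class I antigen display of a cell: the heavy chains H2-K1 and H2-D1, their light chain B2m, the peptide transporter subunits Tap1 and Tap2, the loading chaperone Tapbp, the inducible proteasome subunits Psmb8, Psmb9 and Psmb10, and the transactivator Nlrc5. They were taken by symbol, and all 10 were found among the 53313 gene identifiers that the 17 count tables have in common. The libraries are bulk RNA-seq of wild-type C57BL/6Rj mice in 5 groups. There were 4 non-senescent cultures of primary tubular epithelial cells (PTEC), labelled as proximal tubular cells, collected at day 6 and not irradiated, and 4 senescent PTEC cultures, collected at day 16 after γ-irradiation with 10 Gy. The other groups were whole kidneys of untreated males, 3 animals each at 3, 12 and 24 months. Irradiation and time in culture changed together between the PTEC groups, so their shares cannot be told apart. The sources used here do not state the age of the PTEC donors or whether each culture came from a different animal, and if not, the p-values measure only technical spread.

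Class I molecules carry short peptides from inside the cell to its surface, where CD8+ T cells read them. The proteasome cuts proteins into peptides, Tap1 and Tap2 pump these into the endoplasmic reticulum, and tapasin (Tapbp) holds the transporter next to an empty heavy chain bound to beta-2 microglobulin until a peptide fits. Interferons are the best known inducers of the set: they switch on the immunoproteasome, in which Psmb8, Psmb9 and Psmb10 take the places of Psmb5, Psmb6 and Psmb7, and they raise Nlrc5, which acts at the class I promoters. Tubular cells show some class I at rest and are a target of CD8+ T cells in a rejected kidney graft.

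The PTEC libraries held between 26963442 and 35409144 counts and the kidney libraries between 37311247 and 66894790, and depth rose with age in the kidneys. Proximal tubule markers were thin in culture, since only 7 of 16 passed the filter on low counts in PTEC. Of these 7, 4 fell in the senescent cultures, where 19.7% of all genes tested fell. Among the 4 was Hnf4a, a proximal tubule transcription factor. The summed CPM (read counts relative to the library total, scaled between libraries) of those 16 markers was 236 to 895 in non-senescent and 175 to 356 in senescent PTEC, against at least 48369 in each kidney. The gene model of H2-K1, H2-D1, Tapbp, Psmb8 and Psmb9 carried another version number in the 3-month tables than in the 12- and 24-month tables. For these 5 genes an age difference against 3 months cannot be told apart from that change. The models of B2m, Tap1, Tap2, Psmb10 and Nlrc5 kept their version number, and the PTEC comparison and the 24 against 12 month comparison are free of the change. Tap1 shares exon sequence with Psmb9, so its reads against 3 months may still depend on the changed Psmb9 model. Reads of the near-identical heavy chains may have been assigned to the wrong one, which leaves single heavy chains uncertain.

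Of the 10 genes, 7 lie within 1351601 bases of chromosome 17, from Tapbp to H2-D1 (GRCm38, chr17:33915899-35267499). Tap1 and Psmb9 stand head to head there, on opposite strands, with 225 bases between their RefSeq starts. In the GENCODE models, on which the exon lengths rest, the 2 genes overlap and share exon sequence on opposite strands, and Tap2, Tapbp, Psmb8 and Nlrc5 each share some with an antisense gene. The strand setting of the counting is not given, so reads of such partners may have been mixed. The stretch between Tap1 and Psmb9 is shown beside the 200 bases upstream of B2m, H2-K1, H2-D1 and Psmb8, because these promoters belong both to genes up-regulated in senescent PTEC (Tap1, B2m and Psmb8) and to genes that were not called there (Psmb9, H2-K1 and H2-D1). All sequences are from RefSeq (GRCm38.p6), which held 9 promoter windows for 8 of the 10 genes, since H2-K1 has a second start. Each runs 5′ to 3′ on the strand of its gene, and capitals mark matches to the motifs named after them, other than the GC box.
Tap1 (between its start and that of Psmb9, chr17:34187331-34187555, plus strand): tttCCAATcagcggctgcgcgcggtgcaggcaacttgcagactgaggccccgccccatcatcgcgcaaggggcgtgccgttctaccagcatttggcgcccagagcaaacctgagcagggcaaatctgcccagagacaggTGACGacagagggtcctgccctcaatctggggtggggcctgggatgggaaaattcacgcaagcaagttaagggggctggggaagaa
B2m (chr2:122147487-122147686, plus strand): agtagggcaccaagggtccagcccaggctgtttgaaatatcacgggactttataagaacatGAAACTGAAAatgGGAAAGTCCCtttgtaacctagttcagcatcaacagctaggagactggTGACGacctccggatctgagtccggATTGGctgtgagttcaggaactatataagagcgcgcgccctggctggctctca
H2-K1 (chr17:34000348-34000547, minus strand): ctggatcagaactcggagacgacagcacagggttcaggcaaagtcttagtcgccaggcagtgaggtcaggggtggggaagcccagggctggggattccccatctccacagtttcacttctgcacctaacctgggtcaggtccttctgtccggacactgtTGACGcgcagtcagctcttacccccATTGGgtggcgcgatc
H2-D1 (chr17:35262894-35263093, plus strand): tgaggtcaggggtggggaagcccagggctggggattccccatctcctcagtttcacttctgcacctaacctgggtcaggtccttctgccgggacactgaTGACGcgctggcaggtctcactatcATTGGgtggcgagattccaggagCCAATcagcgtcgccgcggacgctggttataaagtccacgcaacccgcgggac
Psmb8 (chr17:34197995-34198194, plus strand): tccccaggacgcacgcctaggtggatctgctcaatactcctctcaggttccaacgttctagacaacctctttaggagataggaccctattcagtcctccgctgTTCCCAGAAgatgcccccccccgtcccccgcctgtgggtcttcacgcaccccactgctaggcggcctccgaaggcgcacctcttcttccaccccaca

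The motifs were searched on both strands of the 300-base windows, from 250 bases before to 50 after each start. The core of the interferon-stimulated response element, GAAA followed by any 2 bases and GAAA, was found for 1 of the 8 genes, B2m, and in 3.44% of all 32851 windows. An NF-kB motif, GGG followed by any 2 bases and TTTCC, also lay in the B2m window, 3 bases after the first motif, and in 1.63% of all windows. The gamma-activated site TTCNNNGAA was found in the Psmb8 window and in 8.3% of all windows. TGACG, part of the X2 box through which Nlrc5 and its partners reach class I promoters, was present for 5 of the 8 genes (B2m, H2-K1, in both of its windows, H2-D1, Tap1 and Psmb9) against 20.8% of all windows. CCAAT, the core of the Y box, was present in those 5 and in Tapbp, against 37.4% of all windows, and the GC box GGGCGG in Tapbp, Tap1 and Psmb9, against 35.7%. These matches describe the letters of the windows and not binding. Only exact matches were counted, so a gene without a match, such as H2-K1 or H2-D1, may still hold a variant of the element. The motifs therefore do not set called and uncalled genes apart.

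The first comparison asked how the class I genes differ between senescent and non-senescent PTEC. Transcripts of 6 of the 10 genes were up-regulated in senescent PTEC: both transporter subunits, tapasin, the light chain, 1 immunoproteasome subunit (Psmb8) and Nlrc5. Up-regulated means an adjusted p under 0.05 with a log2 fold change above 0.5, in edgeR's quasi-likelihood test with Benjamini-Hochberg adjustment over all 15434 genes tested, and 20.1% of those genes met it. No member was down-regulated in the main edgeR fit, by DESeq2 or by limma-voom, where edgeR called 19.7% of all genes tested down-regulated. In the main fit 1 member, Psmb10, was lower at an unadjusted p under 0.05. It was called lower by edgeR with cultures paired by number and with no filter on low counts. The heavy chains H2-K1 and H2-D1 did not pass, and neither did Psmb9 and Psmb10, although 8 of 10 members, all but the heavy chains, had an unadjusted p under 0.05 (51.6% of all genes tested). The median log2 fold change of the 10 genes was 0.87, against a median of 0.00 over all genes tested. In the same 6 genes every senescent culture lay above every non-senescent culture, which held for 22.1% of all genes tested.

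**Figure D1:**
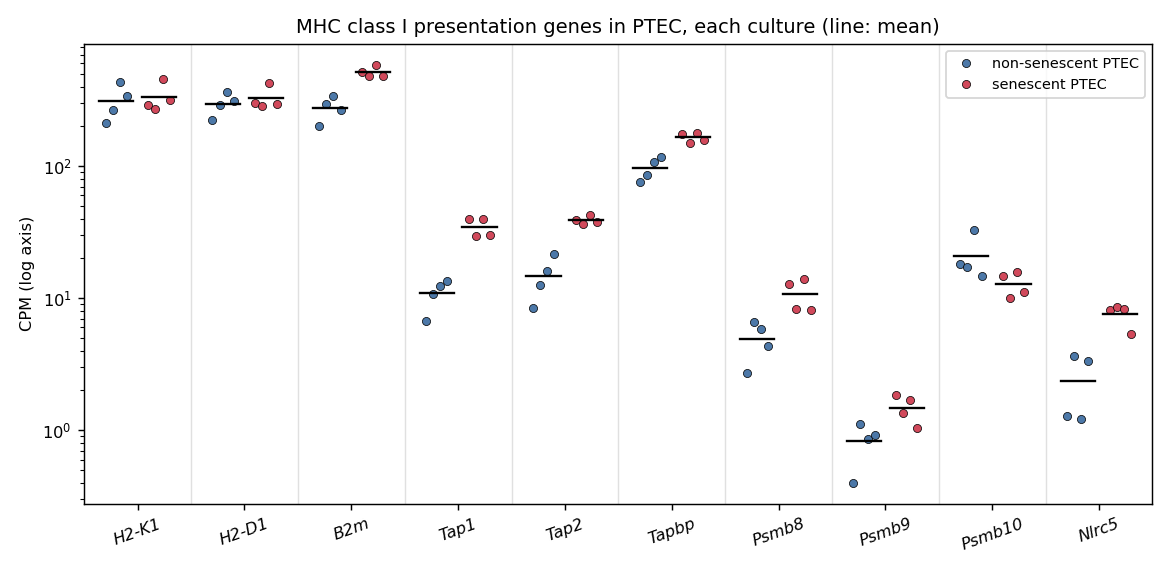
CPM of the 10 genes (log axis) in each of 4 non-senescent and 4 senescent PTEC cultures, with points for cultures and lines for means. The groups stand apart for B2m, Tap1, Tap2, Tapbp, Psmb8 and Nlrc5, while H2-K1, H2-D1, Psmb9 and Psmb10 overlap.

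H2-K1 is one of the classical heavy chains, the part of the molecule that holds the peptide. It was measured at 214, 265, 434 and 341 CPM in non-senescent cultures 1 to 4, and at 291, 273, 459 and 317 CPM in the senescent ones. The ranges overlapped over most of their length, culture 3 was the highest of both groups, and the log2 fold change was 0.10 ± 0.24 (SE, edgeR adjusted p = 0.776), with a 95% interval of -0.45 to 0.64. H2-D1, the other classical heavy chain, was at 225, 291, 366 and 311 CPM in non-senescent and 301, 287, 428 and 294 CPM in senescent cultures. Culture 3 was again highest in both groups, and the log2 fold change was 0.14 ± 0.19 (edgeR adjusted p = 0.595), with an interval of -0.29 to 0.56. These intervals leave room for changes up to about the threshold of the call, so that the heavy chains cannot be said to be equal. With the counts of both chains added into 1 row, which removes reads swapped between them, the log2 fold change was 0.11 (adjusted p = 0.701).

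The light chain passed the test in the same cultures. B2m, which every class I heavy chain needs to reach the surface, was at 203, 298, 337 and 266 CPM in non-senescent and 512, 481, 585 and 482 CPM in senescent PTEC. The lowest senescent culture lay well above the highest non-senescent one, and B2m was up-regulated by 0.90 ± 0.17 on the log2 scale (edgeR adjusted p = 0.00245).

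Both subunits of the peptide transporter passed the test, and Tap1 shared the largest log2 fold change of the set with Nlrc5. Tap1 was at 6.701, 10.8, 12.5 and 13.5 CPM in non-senescent and 39.6, 29.6, 39.9 and 29.98 CPM in senescent cultures, a gap of more than the whole spread of either group. It was up-regulated by 1.68 ± 0.23 on the log2 scale (edgeR adjusted p = 0.000389), a 3.202-fold difference. Tap2, its partner subunit, was at 8.48, 12.5, 16.1 and 21.5 CPM and 39.2, 36.3, 43.01 and 38 CPM, respectively. The non-senescent cultures were spread widely while the senescent ones lay close together, and the increase was 1.42 ± 0.25 (edgeR adjusted p = 0.00163). The count ratio of Tap1 to Tap2 within a culture was 0.629 to 0.863 in non-senescent and 0.789 to 1.01 in senescent PTEC, which overlapped (exact permutation test, two-sided p = 0.171, adjusted over 5 ratios 0.214). Tapbp, the chaperone that bridges transporter and heavy chain, was at 75.7, 85.04, 107 and 118 CPM and 175, 149.5, 177 and 159 CPM. It rose by 0.78 ± 0.16 (edgeR adjusted p = 0.00354), the smallest of the 6 called increases, and shares exon sequence on the same strand with its neighbour Zbtb22, so some of its reads could belong there.

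Of the 3 immunoproteasome subunits 1 passed the test. Psmb8 (LMP7), the chymotrypsin-like subunit, was at 2.74, 6.56, 5.84 and 4.32 CPM in non-senescent and 12.9, 8.24, 13.9 and 8.12 CPM in senescent PTEC, and increased by 1.15 ± 0.31 (edgeR adjusted p = 0.01300). Psmb9 (LMP2) was the scarcest member, with 13 to 34 reads per non-senescent and 30 to 63 per senescent library. Its CPM of 0.3996, 1.12, 0.863 and 0.923 and 1.83, 1.34, 1.702 and 1.04 overlapped, and the log2 fold change of 0.84 ± 0.34 did not pass (edgeR adjusted p = 0.0703), although Tap1, on the other side of the shared 225 bases, was up-regulated in these cultures. Psmb10 (MECL-1) was the only member with a negative value. It was at 18.01, 17.3, 32.9 and 14.8 CPM in non-senescent and 14.6, 10.05, 15.7 and 11.2 CPM in senescent PTEC, with non-senescent culture 3 far above the others. Its log2 fold change was -0.69 ± 0.27 (edgeR adjusted p = 0.0609), and with the culture number as a block, which pairs cultures of the same number, it was called lower, as also with no filter on low counts (block: -0.64, adjusted p = 0.00902).

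Nlrc5 is the class I transactivator, a member of the NLR family that is recruited to the promoters of heavy chains, B2m, Tap1 and Psmb9. It was at 1.29, 3.68, 1.22 and 3.32 CPM in non-senescent and 8.14, 8.64, 8.24 and 5.39 CPM in senescent cultures. The non-senescent cultures fell into a lower and a higher pair, all 4 senescent cultures exceeded them, and Nlrc5 was up-regulated by 1.68 ± 0.39 (edgeR adjusted p = 0.00659). Its libraries held 31 to 112 reads in non-senescent and 156 to 305 in senescent PTEC.

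**Figure D2:**
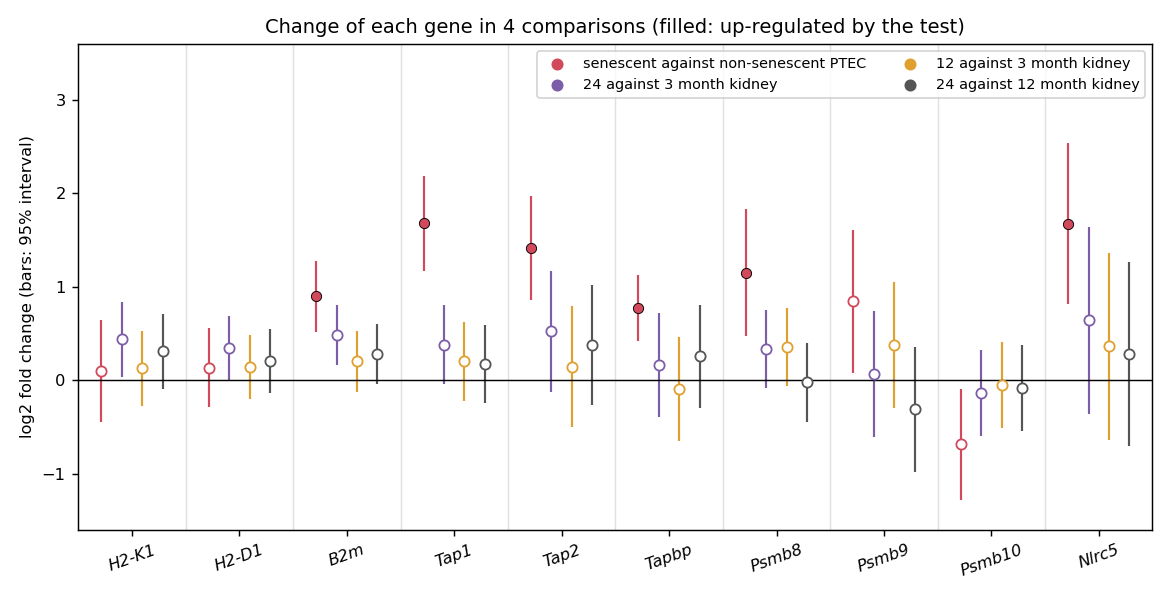
Log2 fold change of the 10 genes with its 95% interval in each of 4 comparisons, with filled points for genes called up-regulated. Filled points occur only in the PTEC comparison, where the values run from -0.69 for Psmb10 to 1.68 for Tap1, and no kidney interval belongs to a called gene.

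The read count of each other member was also set against the summed counts of H2-K1 and H2-D1 in the same culture. This ratio was chosen after the values above were seen and restates them per culture, so it is given as a description with no test. B2m amounted to 40.8% to 53.7% of the heavy chain reads in non-senescent and 65.9% to 86.5% in senescent PTEC, on average 1.73-fold more. Tap1 amounted to 1.53% to 2.07% and 4.497% to 6.69%, and its mean ratio differed by 3.00-fold. For Tap2, Tapbp, Psmb8 and Nlrc5 the mean ratios differed by 2.59-fold, 1.59-fold, 2.08-fold and 3.28-fold. The groups did not overlap for these 6 genes and overlapped for Psmb9 (1.71-fold) and Psmb10 (0.588-fold). Between cultures of the same number the senescent one was higher in 4 of 4 pairs for the 6 genes and for Psmb9, and in 0 of 4 for Psmb10. The shares of all genes with such ratios are not given here.

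Replacement of the standard catalytic subunits was described by the count ratio of each inducible subunit to its counterpart. Psmb8 over Psmb5 was 0.0204, 0.0552, 0.0264 and 0.0402 in non-senescent and 0.102, 0.0684, 0.08599 and 0.06898 in senescent cultures. Every senescent culture was higher, by 2.43-fold on average (exact permutation p = 0.0286, the smallest possible, adjusted over 5 ratios 0.0714). Psmb9 over Psmb6 was 0.00289, 0.00858, 0.00377 and 0.008803 against 0.0175, 0.0134, 0.0115 and 0.009600, also without overlap and 2.36-fold higher (same exact p and adjusted p; paired by culture number, exact p = 0.125 for both ratios), while resting on the few Psmb9 reads given above. Psmb10 over Psmb7 was 0.0877, 0.0961, 0.108 and 0.102 against 0.104, 0.0731, 0.0837 and 0.0742, which overlapped (0.844-fold, exact p = 0.143, adjusted 0.214). No ratio passed after adjustment, and the highest ratio of any culture was 0.108, that of Psmb10 over Psmb7 in non-senescent culture 3. The standard subunits themselves did not pass the test: Psmb5 had a difference of -0.14 ± 0.23, Psmb6 of -0.38 ± 0.24 and Psmb7 of -0.44 ± 0.22 on the log2 scale (edgeR adjusted p = 0.639, 0.221 and 0.135).

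**Figure D3:**
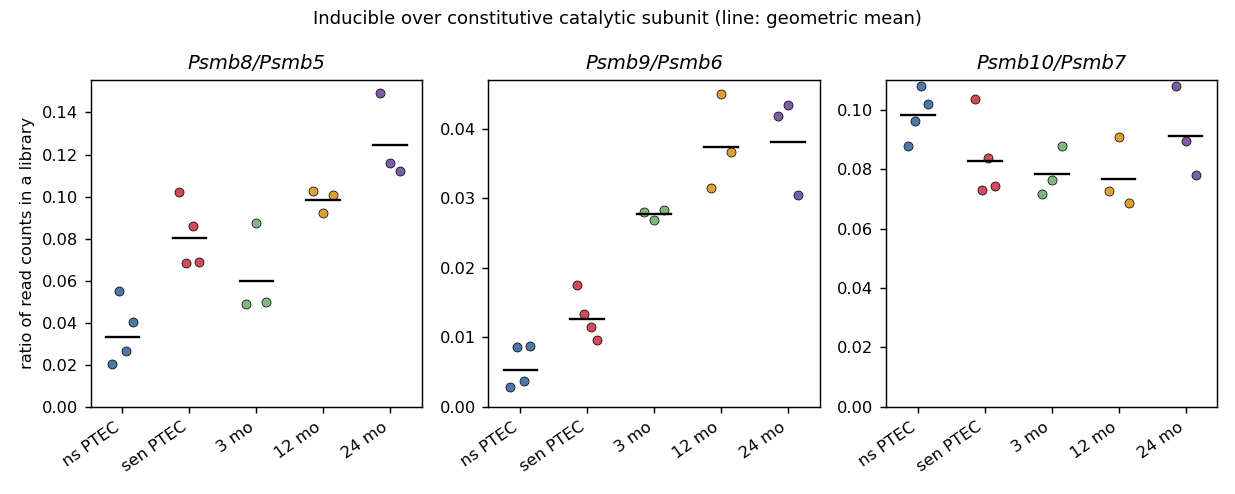
Read count ratio of each inducible catalytic subunit to the constitutive one it replaces (linear axes from 0), for 4 non-senescent (ns) and 4 senescent (sen) PTEC cultures and 3 kidneys each at 3, 12 and 24 months, with lines for geometric means. Psmb8/Psmb5 and Psmb9/Psmb6 separate the PTEC groups, Psmb8/Psmb5 also separates the 3 ages, and Psmb10/Psmb7 overlaps throughout.

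Other genes of the class I pathway were counted against the 20.1% of all genes tested that rose and the 19.7% that fell in PTEC. Of 11 further subunits of the 20S proteasome core, 1 fell, Psma7 (-0.62, edgeR adjusted p = 0.0316), and the list's median was -0.36. Among 4 proteasome activator genes edgeR called none, with 1 at an unadjusted p under 0.05 (51.6% of all genes tested). The interferon-inducible pair Psme1 and Psme2 had values of -0.05 ± 0.21 and 0.09 ± 0.20. Of 17 genes for peptide loading and trimming, 2 cytosolic peptidases fell, Blmh (-0.88, adjusted p = 0.00225) and Lap3 (-0.65, adjusted p = 0.00748). The folding helpers of the loading complex did not pass the test, with -0.05 for Calr, 0.13 for Canx and -0.00 for Pdia3, nor did the trimming peptidase Erap1 (-0.01) or the tapasin relative Tapbpl (-0.02).

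Class I chains outside the classical pair were counted next. Of 25 such genes, 15 passed the filter; 4 rose and 1, Cd1d1, fell, with a median of 0.46, where 20.1% of all genes tested rose and 19.7% fell. Fcgrt, the neonatal Fc receptor that carries IgG and albumin through tubular cells, rose from 16.1 to 57.7 CPM (log2 1.84 ± 0.23, edgeR adjusted p = 0.000270). Mr1, which shows vitamin B metabolites of microbes to MAIT cells, rose from 11.4 to 35.6 CPM (1.64 ± 0.26, adjusted p = 0.000890). H2-T23 (Qa-1), a ligand of NK cell receptors, rose from 21.2 to 52.6 CPM (1.31 ± 0.16, adjusted p = 0.000208). All 3 pair with B2m, and the fourth riser, H2-T10, was scarce at 0.623 and 1.42 CPM. The classical pair remained the bulk of the H2 class I reads: H2-K1 and H2-D1 made up 86.9% to 89.9% of the summed CPM of 20 H2 chains in non-senescent and 81.7% to 86.6% in senescent PTEC, a share that can shift with reads swapped between these similar genes.

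Among 26 regulators of class I transcription, 24 were tested, 4 rose and 5 fell, with a median of -0.16, where 20.1% of all genes tested rose and 19.7% fell, so the counts are near the background. Among the risers were Irf7 (2.44 ± 0.43, edgeR adjusted p = 0.00155), which amplifies the type I interferon response, Irf9 and Stat2 (1.25 log2). Irf1, the interferon-gamma responsive activator of the class I genes, went the other way without reaching the fold threshold: it was at 28.5 CPM in non-senescent and 20.6 CPM in senescent PTEC (-0.47 ± 0.13, adjusted p = 0.0164), and every senescent culture was lower. Rfx5, the X box binding partner of Nlrc5, had 0.27 ± 0.19 (adjusted p = 0.285). Ezh2, a Polycomb methyltransferase that can silence class I genes, fell by 1.89 on the log2 scale (adjusted p = 7.18e-05), as did, by less, its partner Suz12 (-0.96), Irf8 (-1.33), Nfyc (-0.91), which is part of the CCAAT binding complex, and Nfkb2 (-0.64). Of 34 interferon-stimulated genes 31 were tested and 25 rose, with a median of 1.94, led by Ifi44 (4.65 ± 0.56, adjusted p = 0.000202), Ifit1 (4.56 ± 0.54, adjusted p = 0.000171) and Isg15 (4.16 ± 0.44, adjusted p = 8.74e-05). The interferon genes themselves were at or near the floor, with Ifng, Ifnb1 and Ifna4 at 0 reads in all 8 cultures, and Ifnl2 and Ifnl3 at 0 reads in the non-senescent and 2 and 1 reads in all in the senescent ones. Of 11 receptor, kinase and feedback genes tested 1 fell, Socs3 (-1.12 ± 0.18, adjusted p = 0.000890), an inhibitor of cytokine signalling.

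**Figure D4:**
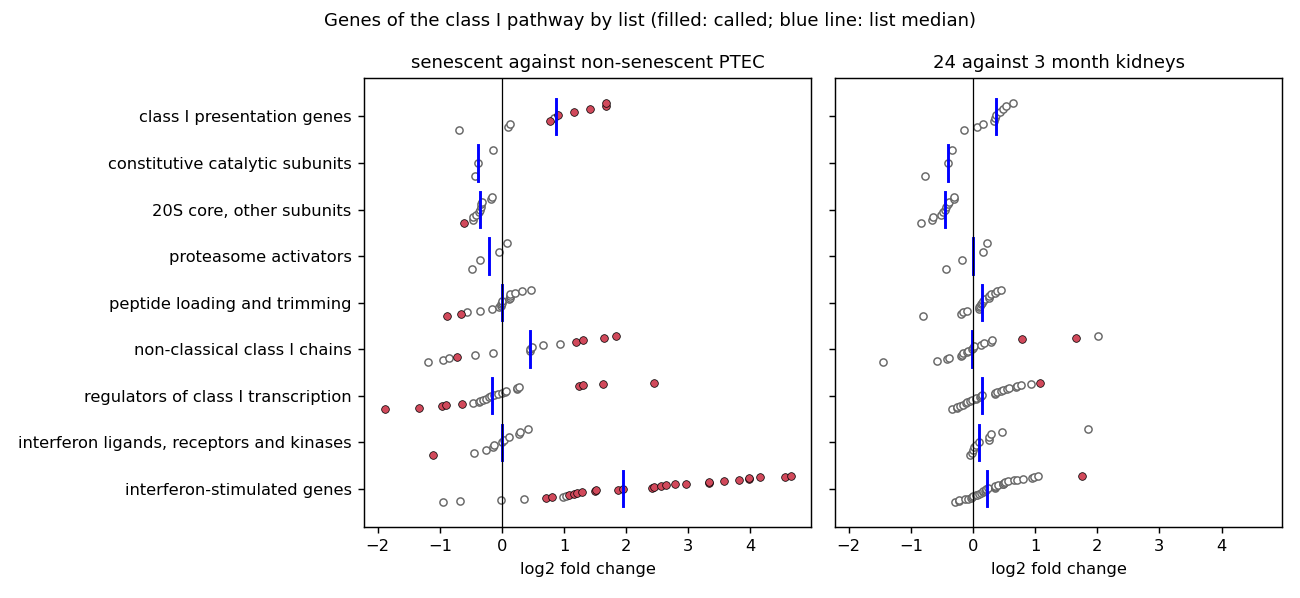
Log2 fold change of every tested gene in the class I set and 8 related lists, for senescent against non-senescent PTEC and for 24 against 3 month kidneys, with filled points for called genes and blue lines for list medians. In PTEC the medians of the class I set and of the interferon-stimulated genes lie to the right of 0 and that of the proteasome core to its left, and in the kidneys the set has a median of 0.36 with no filled point.

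Leukocytes express class I strongly, so their markers are given beside the PTEC values. Counts of called markers, here and for other cell types, stand against 20.1% of all genes tested that rose and 19.7% that fell. Of 12 pan-leukocyte markers 8 passed the filter; 4 fell in senescent PTEC, among them Ptprc (CD45), at 3.59 CPM in non-senescent and 1.87 CPM in senescent cultures. Their summed CPM was 30.4 to 53.7 in non-senescent and 16.5 to 43.1 in senescent cultures. Of 20 T and NK cell markers 1 passed the filter, 12 were at 0 reads in all non-senescent and 8 in all senescent cultures, and Cd3d, Cd3g and Cd8b1 were at 0 in all 8 cultures. Of 13 macrophage markers tested 2 fell, Cd68 and Cd14; Lyz2 was at 35.1 and 66.6 CPM without passing the test, and the summed ranges of 122 to 187 and 89.5 to 293 overlapped. Of 8 dendritic cell markers 1 passed the filter and rose, Zbtb46 (4.22 to 8.47 CPM, edgeR adjusted p = 0.00395), which endothelium expresses too, and the summed CPM was 3.098 to 6.33 in non-senescent and 7.73 to 10.7 in senescent cultures. Of that list Xcr1, Siglech, Clec9a, Cd209a and Ccr7 were at 0 reads in all non-senescent cultures, and Xcr1 and Siglech in all senescent ones as well. No B and plasma cell marker passed the filter, with sums of 0.0615 to 0.314 and 0.729 to 1.11 CPM. Markers of fibroblasts and pericytes moved with the senescent state: 6 of 9 rose and 1 fell, with summed CPM of 153 to 320 and 593 to 1260, led by Acta2 (3.52 ± 0.37, edgeR adjusted p = 8.84e-05), the smooth muscle actin of myofibroblasts. Of 5 podocyte markers tested 2 rose, Synpo (2.11 ± 0.28, adjusted p = 0.000328) and Nphs1 (3.36, adjusted p = 0.00998). What these markers contribute to the class I values was not tested, and in bulk RNA more cells of a type and more RNA per cell cannot be told apart.

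The kidney comparisons asked whether the same genes differ with age. No member was called in any of 3 age comparisons, by edgeR, DESeq2 or limma-voom. Between 24 and 3 months 9 of 10 genes had positive values with a median of 0.36, and 1.89% of 17067 genes tested were up-regulated and 0.451% down-regulated. An unadjusted p under 0.05 was found for 3 members, B2m, H2-K1 and H2-D1, and for 18.2% of all genes tested. The same 3 were higher in every 24-month than in every 3-month kidney, as were 11.9% of all genes tested. Between 12 and 3 months 8 values were positive with a median of 0.17, none had an unadjusted p under 0.05 (16.5% of all genes tested) and none was separated. Of all genes 1.22% were up-regulated, 1.36% down-regulated and 10.9% separated upward. Between 24 and 12 months 7 values were positive with a median of 0.23, none had an unadjusted p under 0.05 (15.2% of all genes tested), and B2m and H2-K1 were higher in every older kidney, as were 13.5% of all genes tested. In that comparison 0.896% of all genes were up-regulated, a count of 153 that fell to 0 with the replicate number as a block, and 0.434% were down-regulated. The block was fitted over all 9 kidneys, whose numbers did not pair against 3 months, so that fit is no paired test of 24 against 12 months. The 12 and 24 month comparisons against 3 months share the 3-month kidneys.

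**Figure D5:**
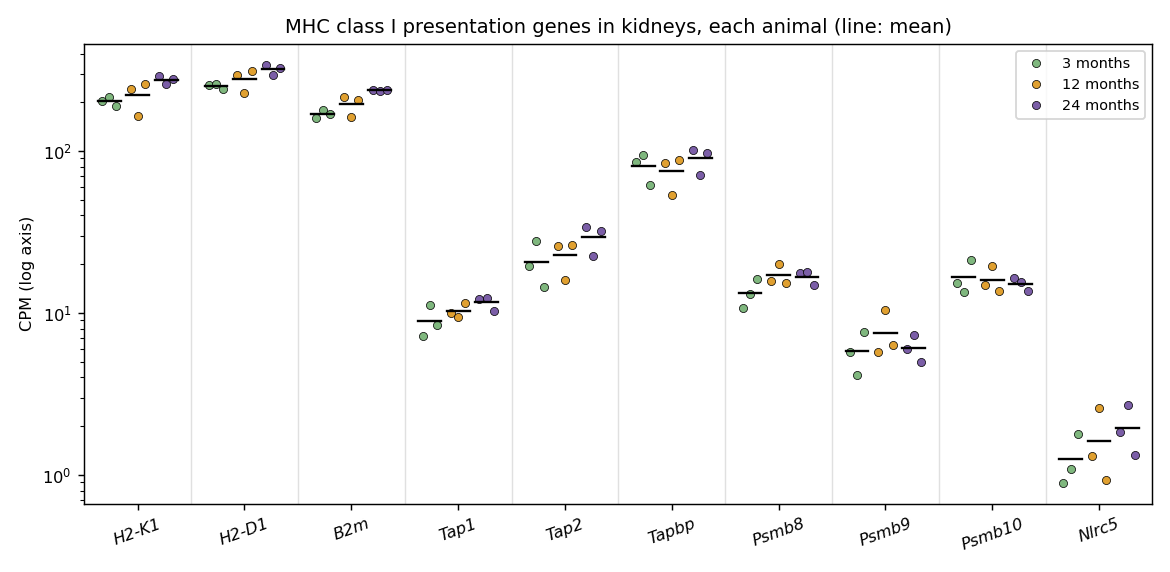
CPM of the 10 genes (log axis) in each kidney at 3, 12 and 24 months, 3 animals per age, with points for animals and lines for means. The 24-month kidneys stand above the 3-month kidneys for B2m, H2-K1 and H2-D1, and the ages overlap for the other 7 genes.

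B2m had the clearest order with age. It was at 161, 178 and 169.7 CPM at 3 months, 217, 163 and 206 CPM at 12 months and 238, 236 and 238 CPM at 24 months. The 24-month kidneys were nearly alike and above all 6 younger ones, and the 12-month animals reached down into the 3-month range. The log2 fold change between 24 and 3 months was 0.48 ± 0.14 (edgeR adjusted p = 0.127), with a 95% interval of 0.16 to 0.81. DESeq2 gave 0.47 with an adjusted p of 0.04997, which passes on p and not on the fold threshold.

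H2-K1 was at 203, 216 and 190.1 CPM at 3 months, 242, 166 and 258 CPM at 12 months and 289.6, 259 and 279 CPM at 24 months. Its 24-month kidneys also exceeded all younger ones, by 0.44 ± 0.18 against 3 months (edgeR adjusted p = 0.241) and by 0.31 ± 0.18 against 12 months (adjusted p = 0.439), the latter free of the change of gene model. H2-D1 was at 256, 260.2 and 241 CPM, 294, 229 and 314 CPM and 341, 295 and 328 CPM at the 3 ages. It was higher in all 24-month than in all 3-month kidneys (0.35 ± 0.15, edgeR adjusted p = 0.269) and overlapped with the 12-month ones. H2-K1 over H2-D1 was 0.790 to 0.831 at 3 months, 0.724 to 0.823 at 12 months and 0.850 to 0.878 at 24 months. Its 24-month values lay above both other ages (exact permutation p = 0.1 each, the smallest that 3 against 3 allows, adjusted 0.167 and 0.250).

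The ranges of the transporter, tapasin and Nlrc5 overlapped between ages. Between 24- and 12-month kidneys of the same number, which are different animals, Tap2, Tapbp and Nlrc5 were higher at 24 months in 3 of 3 pairs. The same was seen for B2m, H2-K1 and H2-D1. The share of all genes with this order is not given here, so the count is only a description. With the number as a block over all 9 kidneys none of the 6 passed (edgeR adjusted p = 0.586 to 0.783). That fit includes the 3-month kidneys and does not test these pairs alone. Tap1 was at 7.19, 11.2 and 8.37 CPM at 3 months, 10.04, 9.38 and 11.5 CPM at 12 months and 12.2, 12.3 and 10.3 CPM at 24 months, and its value between 24 and 3 months was 0.38 ± 0.19 (edgeR adjusted p = 0.314). Tap2 was at 19.5, 27.7 and 14.4 CPM, 25.9, 16.02 and 26.2 CPM and 33.8, 22.4 and 32.2 CPM, with 0.52 ± 0.29 (adjusted p = 0.347). The lowest 24-month kidney lay within the 3-month range for both. Tapbp was at 85.4, 94.1 and 61.6 CPM, 84.8, 53.4 and 88.2 CPM and 102, 71.03 and 97.2 CPM, with 0.16 ± 0.25 (adjusted p = 0.698). Nlrc5, at 34 to 178 reads per kidney, was at 0.893, 1.09 and 1.78 CPM, 1.301, 2.599 and 0.926 CPM and 1.85, 2.71 and 1.32 CPM. Its log2 fold change of 0.64 ± 0.44 was the largest of the set between these ages and the least precise, with an interval of -0.36 to 1.64 (edgeR adjusted p = 0.4300).

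The inducible subunits were also not called. Psmb8 was at 10.7, 13.1 and 16.2 CPM at 3 months, 15.8, 19.99 and 15.4 CPM at 12 months and 17.6, 17.98 and 14.8 CPM at 24 months (0.33 ± 0.19 between 24 and 3 months, edgeR adjusted p = 0.353). Psmb9 was at 5.697, 4.12 and 7.65 CPM, 5.78, 10.49 and 6.35 CPM and 5.96, 7.31 and 5.01 CPM (0.07 ± 0.30, adjusted p = 0.905). Psmb10 was at 15.3, 13.5 and 21.2 CPM, 14.9, 19.5 and 13.7 CPM and 16.3, 15.5 and 13.6 CPM (-0.14 ± 0.20, adjusted p = 0.693). Here 1 animal at 3 months and 1 at 12 months, each of them the highest of its age for all 3 subunits, set much of the spread.

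Set against the standard subunits, 1 of the 3 ratios separated all ages. Psmb8 over Psmb5 was 0.0487, 0.0875 and 0.0499 at 3 months, 0.103, 0.0922 and 0.101 at 12 months and 0.149, 0.116 and 0.112 at 24 months, and no value of one age overlapped with another. The differences were 1.65-fold between 12 and 3 months, 1.27-fold between 24 and 12 months and 2.09-fold between 24 and 3 months, each with p = 0.1 in an exact permutation test, the smallest possible (adjusted over 5 ratios 0.250, 0.250 and 0.167). Neither gene passed the test by itself; Psmb5 averaged 231 ± 87.8, 174 ± 36.7 and 135 ± 18.9 CPM (SD, n = 3) at the 3 ages (-0.77 ± 0.28 between 24 and 3 months, edgeR adjusted p = 0.197). Psmb9 over Psmb6 was 0.0268 to 0.0283 at 3 months, 0.0316 to 0.0450 at 12 months and 0.0306 to 0.0435 at 24 months. Its 3-month values lay below both older groups (1.35-fold and 1.38-fold, exact p = 0.1 each, adjusted 0.250 and 0.167), and the older groups overlapped (1.02-fold, p = 1). The gene models of Psmb5, Psmb6 and Psmb7 did not change between the tables, whereas those of Psmb8 and Psmb9 did, so only the 24 against 12 month ratios are free of it. Psmb10 over Psmb7 overlapped in all 3 comparisons.

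The related lists were read against the 1.89% of all genes tested that rose and the 0.451% that fell between 24 and 3 months. Between 24 and 3 months edgeR called none of the 3 standard catalytic subunits, 11 other core subunits, 4 activators or 17 loading and trimming genes. Their medians were -0.40, -0.46, -0.01 and 0.14, and 2, 1, 0 and 1 genes were at an unadjusted p under 0.05 (18.2% of all genes tested). Of 19 non-classical chains tested 2 rose, Azgp1, a secreted relative of class I chains (0.79 ± 0.13, edgeR adjusted p = 0.0185), and H2-Q10, a soluble chain (1.66 ± 0.35, adjusted p = 0.0467). H2-K1 and H2-D1 made up 50.4% to 67.5% of the summed H2 chain CPM over the 9 kidneys, less than in either PTEC group. Of 26 regulators 1 rose, Irf8, a transcription factor of macrophages, dendritic cells and B cells (1.08 ± 0.14, adjusted p = 0.00685). Irf1 (-0.11 ± 0.24) did not pass, and Rfx5 was higher in every 24-month than in every 3-month kidney without passing (0.55 ± 0.20, adjusted p = 0.196). Of 34 interferon-stimulated genes 1 rose, Oas3, and the median was 0.23 against 1.94 in PTEC. At an unadjusted p under 0.05 were 9 of them (18.2% of all genes tested). Between 12 and 3 months 9 of the 34 had positive values, with a median of -0.22. Between 24 and 12 months 32 had, with a median of 0.45, 1 called (0.896% of all genes) and 12 at an unadjusted p under 0.05 (15.2%).

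Some leukocyte markers rose with age, where 1.89% of all genes tested rose between 24 and 3 months. Of 12 pan-leukocyte markers 4 rose between 24 and 3 months (Cd37, Rac2, Ikzf1 and Vav1), and their summed CPM was 64.98 to 77.3 at 3 months, 108 to 110 at 12 months and 115 to 169 at 24 months. T and NK cell markers summed to 6.80 to 8.75, 11.9 to 23.1 and 14.6 to 20.2 CPM at those ages, with 4 of 18 called up between 24 and 3 months (Ccl5, Cd3e, Cd3g and Cd4). B and plasma cell markers had the largest step: 6 of 10 rose, led by the immunoglobulin genes Ighg2c, Igkc and Ighm, and the sum was 6.96 to 17.1 CPM at 3 months, 49.1 to 233 at 12 months and 118 to 812 at 24 months. Macrophage markers had 1 of 15 called, C1qc (1.05 ± 0.21, edgeR adjusted p = 0.0395), and sums of 162 to 235 and 240 to 304 CPM at 3 and 24 months. Of 8 dendritic cell markers 1 rose, Xcr1 (1.51 ± 0.23, adjusted p = 0.0148), with sums of 7.68 to 10.03 CPM at 3 months, 12.1 to 16.8 at 12 months and 10.97 to 15.3 at 24 months. The part of these cells in the kidney values of class I genes was not tested.

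Several members deviated together in 3 of the kidneys. In the 12-month kidney 2 and the 3-month kidney 3 the log2 CPM of Psmb9, Nlrc5 and Psmb10 lay above the mean of their age, by 0.53, 0.81 and 0.30 and by 0.44, 0.55 and 0.37. In the same animals Tap2, Tapbp and H2-K1 lay below it, by -0.47, -0.46 and -0.40 and by -0.46, -0.36 and -0.09. The 24-month kidney 2 had the same signs, with 0.28, 0.52 and 0.04 for Psmb9, Nlrc5 and Psmb10 and -0.37, -0.32 and -0.09 for Tap2, Tapbp and H2-K1. Over the 9 kidneys the deviations of Psmb9 and Tap2 from their age means correlated at r = -0.96, a description over points that share library preparation and depth. In PTEC culture 3 was high for both heavy chains in both groups, by 0.52 and 0.32 in the non-senescent and 0.49 and 0.41 in the senescent culture, on the same log2 scale.

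Levels in the 5 groups were compared on 1 scale over all 17 libraries and per kilobase of exon, which also lets the genes be ranked. B2m was the most abundant member in every group, at 255 ± 51.4 CPM per kb in non-senescent and 469 ± 48.95 in senescent PTEC (SD, n = 4) and at 243 ± 12.2, 283 ± 40.8 and 339.6 ± 0.725 in kidneys of 3, 12 and 24 months (n = 3 each). The heavy chains followed, H2-K1 at 84.8 ± 25.7 and 89.3 ± 23.3 CPM per kb in the PTEC groups and at 116 ± 5.69 in the oldest kidneys. Nlrc5 and Psmb9 were the lowest in both PTEC groups and at 3 and 24 months, with Nlrc5 at 0.7004 ± 0.1405 in senescent PTEC and 0.284 ± 0.103 at 24 months, and Psmb9 at 0.316 ± 0.0798 and 2.05 ± 0.403.

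Senescent PTEC lay above all 9 kidneys for B2m, Tap1 and Nlrc5, and below all of them for Psmb8, Psmb9 and Psmb10, on that scale. The gene models of H2-K1, H2-D1, Tapbp, Psmb8 and Psmb9 carried other version numbers in PTEC than in the 12- and 24-month kidneys. For these genes a level difference between PTEC and the older kidneys cannot be told apart from that change. Non-senescent PTEC lay below all kidneys for Tap2, Psmb8 and Psmb9 and overlapped with them for the other 7. Senescent PTEC had the highest mean of the 5 groups for 4 genes (B2m, Tap1, Tapbp and Nlrc5), and for 7 when libraries were scaled by total counts alone. The 10 most abundant genes took 3.97% to 6.62% of the counts in PTEC and 13.4% to 16.5% in kidneys. The order of the group means was the same on both scales for Psmb8 and Psmb9, which were highest in the kidneys, and differed between the scales for the other 8 genes. Among neighbours in the order, senescent PTEC stood apart from the next group, the 24-month kidneys, for B2m, Tap1 and Nlrc5 and overlapped with it for Tapbp. For H2-D1 no neighbouring pair of groups stood apart, and for H2-K1 only the 24- and 12-month kidneys did.

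Other genes of the MHC were counted in the same way. Besides the 7 members, 68 genes between Tapbp and H2-D1 were tested in PTEC, of which 10 (14.7%) were up-regulated, against 20.1% of all genes tested, and 11 (16.2%) down-regulated, against 19.7%. In the kidneys 76 such genes were tested. Between 24 and 3 months 6 (7.89%) were up-regulated, against 1.89% of all genes, and between 12 and 3 months 3 (3.95%) were up- and 2 (2.63%) down-regulated, against 1.22% and 1.36%. Between 24 and 12 months edgeR called none, where 0.896% of all genes were up- and 0.434% down-regulated. In that comparison 9 were at an unadjusted p under 0.05, as were 15.2% of all genes tested.

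The genes whose log2 CPM was most like the mean of the 10 members, by the smaller of Pearson's r over 8 PTEC cultures and over 9 kidneys among 14477 genes, were Serpine2 (r = 0.89 and 0.91), C4b (0.89 and 0.89), H2-DMa (0.88 and 0.92), H2-Eb1 (0.88 and 0.91) and Ascl4 (0.88 and 0.90). Serpine2 is a secreted protease inhibitor, C4b a complement component, and H2-DMa and H2-Eb1 are MHC class II genes. Their log2 fold changes in senescent PTEC were 3.55, 2.83, 1.53, 2.85 and 1.39, and between 24 and 3 months 1.22, 2.34, 0.89, 1.06 and 1.44, larger than the member median of 0.87 and 0.36 in each case. These correlations are descriptions over libraries that share group, depth and preparation.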

How the data were processed

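The authors prepared strand-marking mRNA libraries (NEBNext Ultra II Directional), ran a Nextflow RNA-seq pipeline with GENCODE annotation and deposited raw read counts per gene for 17 libraries. Their build was GRCm38, and the counting tool and strand setting are not given in the sources used here. The 3 sets of tables (PTEC, 3-month kidneys, older kidneys) held 53715, 54146 and 55401 gene identifiers, so genes were joined by identifier without version, and symbols, positions and exon lengths came from GENCODE M21.

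PTEC and kidneys were fitted apart, all 9 kidneys in 1 fit, with edgeR 4.0.16 (filterByExpr, TMM, robust quasi-likelihood) in R 4.3.3. Calls needed both a Benjamini-Hochberg p below 0.05 and a log2 fold change beyond 0.5 in either direction, as in the study. CPM are TMM-scaled, and log2 CPM used a prior count of 2. The 5 count ratios between 2 genes were tested by two-sided exact permutation over libraries. The text names the 10 members, 13 fixed pathway genes (1 of them is not reported here), at most 3 called genes per list with the largest change and a mean of at least 1 CPM, and 5 genes most like the members; Lyz2, Ptprc and genes at 0 reads are given as defining markers, and further genes behind a count of 5 or fewer were named after their values were seen. The members and lists were chosen with earlier results of these data known. Alternatives were DESeq2 1.42.0, limma-voom (limma 3.58.1), other scalings and filters, other fold thresholds, summed heavy chains, a replicate block and leaving out each library. The scripts were tested on simulated data, and no libraries of a group agreed within sampling noise.

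In PTEC the deviations of same-numbered cultures correlated at 0.284, 0.382, 0.614 and 0.186, so numbers were taken as pairs there. Between 24 and 12 months the values were also positive (0.384, 0.557 and 0.172), but the 24-month kidney 3 correlated most with the 12-month kidney 1. Kidneys of different ages came from different animals, so equal numbers there are no known pairs. Against 3 months all values were negative.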

Additional observations from a re-analysis of the deposited data

Results flagged for a closer look

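In 2 of 30 groups of 4 cultures 1 culture lay far from the others by Dixon's ratio of its gap to the range of the group, which chance alone gives in about 1 in 20 groups. H2-D1 was at 428 CPM in senescent culture 3, with the other 3 between 287 and 301, a ratio of 0.895. Nlrc5 was at 5.39 CPM in senescent culture 4, with the others between 8.14 and 8.64, a ratio of 0.846. Without senescent culture 3 the log2 fold change of H2-D1 was -0.010 and that of H2-K1 was -0.085, in place of 0.14 and 0.10. Nlrc5 remained up-regulated without any single culture, with values of 1.47 to 1.97.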

How the results depend on the processing

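The count of 6 up-regulated members in PTEC was found under every scaling and filter, with DESeq2, limma-voom, the replicate block and without each culture, except that a log2 fold change above 1 left 4. In the kidneys the count stayed at 0 under all alternatives. The count of down-regulated members in PTEC was 0 and became 1, Psmb10, with the replicate block and with no filter on low counts, and 0 to 1 without single cultures (Psmb10 was at -0.82, adjusted p = 0.0374, without non-senescent culture 4 and at -0.37, adjusted p = 0.131, without non-senescent culture 3). The block changed no other call, and it took the count of all genes up-regulated from 322 to 102 between 24 and 3 months and from 209 to 52 between 12 and 3 months, where numbers did not pair. With the PTEC cultures paired, the smallest p of a ratio was 0.125. Members highest in senescent PTEC numbered 4, and 7 with no scaling beyond library size. The ratios to the heavy chains, added after the data were seen, kept their sign without each culture (0.59 to 2.02 on the log2 scale for the 6 called genes).

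Values that changed sign without 1 library all belonged to results that were not called, and are given as lowest and highest log2 values. In PTEC these were H2-K1 (-0.085 to 0.30), H2-D1 (-0.010 to 0.25) and H2-K1 over H2-D1 (-0.080 to 0.047). Between 24 and 3 months they were Psmb9 (-0.13 to 0.31), Psmb10 (-0.26 to 0.069) and Tap1 over Tap2 (-0.38 to 0.043). Between 12 and 3 months they were Tap2 (-0.057 to 0.43), Tapbp (-0.25 to 0.11), Psmb10 (-0.21 to 0.15), Nlrc5 (-0.17 to 0.70), Psmb10 over Psmb7 (-0.15 to 0.058), H2-K1 over H2-D1 (-0.061 to 0.032) and Tap1 over Tap2 (-0.10 to 0.26). Between 24 and 12 months they were Psmb8 (-0.085 to 0.11), Psmb9 (-0.46 to 0.0055), Psmb10 (-0.18 to 0.077), Nlrc5 (-0.021 to 0.81) and Psmb9 over Psmb6 (-0.091 to 0.19). Other values that were not called moved as well. Between 24 and 3 months Tapbp was at 0.0030 without the 3-month kidney 3 and at 0.31 without the 24-month kidney 2, and Nlrc5 (0.34 to 0.98), Tap2 (0.32 to 0.81), Tap1 (0.25 to 0.59) and Psmb8 (0.20 to 0.50) ranged widely. Between 24 and 12 months H2-K1 was at 0.14 without the 12-month kidney 2. The cause was not tested. Psmb9 and Nlrc5 had the fewest reads of the members in PTEC.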
